A study of Mus musculus with 14 samples.

Results

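Chromatin accessibility was followed around 10 genes of fibroblast growth factor (FGF) signalling, of 21864 protein-coding genes with an annotated transcription start site (TSS): the ligand gene Fgf4, the receptor genes Fgfr1, Fgfr2, Fgfr3 and Fgfr4, the feedback inhibitor genes Spry2, Spry4 and Dusp6, and the ETS factor genes Etv4 and Etv5. Peaks from the 14 ATAC-seq lists were joined wherever they shared 1 bp or more, which left 124598 regions. Of these, 88175 lay within 50 kb of a TSS. A region went to the gene with the nearest TSS, which gave 139 regions to the 10 genes: 9 to Fgf4, 15 to Fgfr1, 9 to Fgfr2, 12 to Fgfr3, 7 to Fgfr4, 15 to Spry2, 23 to Spry4, 13 to Dusp6, 12 to Etv4 and 24 to Etv5. The farthest member lay 48879 bp upstream of Etv5 and was called in 11 libraries. Of the 102 regions past the limit whose nearest TSS belonged to 1 of these genes, the closest lay 50084 bp downstream of Fgfr2, in 1 library, and 52946 bp upstream of Fgfr1, in 12 libraries.

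The cells were mouse embryonic stem (ES) cells of the KH2 line, strain C57BL/6, with a single copy of the transgene TRE:GATA6-DSREd2, from which doxycycline (Dox) induces GATA6, a transcription factor of the primitive endoderm (PrE). Libraries were made from 50000 cells at 7 time points, 2 libraries each and 14 in all. The 0 h cells, uninduced, were in 2i medium with LIF, which holds PD0325901, an inhibitor of the ERK-activating kinase MEK, and a GSK3 inhibitor. Cells of 2, 4 and 8 h were in serum medium with LIF and Dox at 1 µg/mL, and those of 16, 24 and 48 h had Dox for 12 h and then serum medium with LIF alone. Release from MEK and GSK3 inhibition, entry into serum and GATA6 induction thus began together, and their parts in a difference from 0 h cannot be told apart. Dox removal likewise divides the 2, 4 and 8 h libraries from those of 16, 24 and 48 h. Its part in a trend within serum cannot be told apart from that of time. All libraries came from 1 engineered line, and the study states that replicates were independent, without saying whether they were separate cultures. The p-values therefore measure only the spread between these libraries, which may be technical.

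In the blastocyst, FGF4 from the epiblast (Epi) binds FGF receptors on neighbouring cells of the inner cell mass and activates the RAS, RAF, MEK and ERK cascade, which favours the PrE fate. FGFR1 and FGFR2 are the receptors best known for this step. ERK signalling switches on its own brakes, among them the Sprouty proteins SPRY2 and SPRY4, which dampen the cascade above ERK, and DUSP6, a phosphatase that removes the activating phosphates from ERK, and it also switches on ETV4 and ETV5, DNA-binding factors of the ETS family.

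The lists held 55588 to 65073 peaks per library and covered 23.0 to 31.2 Mb, with the lowest cover at 48 h (23.0 and 25.6 Mb against 28.0 and 29.9 Mb at 0 h). Of the 139 regions, 60 and 66 were called at 0 h (43.2% and 47.5%, against 45.6% and 48.2% of all regions within 50 kb of a TSS). At 16 h 70 and 80 were called (50.4% and 57.6%, against 50.6% and 53.6%). At 48 h the counts were 56 and 62 (40.3% and 44.6%, against 45.8% and 48.4%). Summed covered length of 7 PrE marker genes ran from 12330 to 12699 bp at 0 h and from 28657 to 30468 bp at 48 h, and 4 of them passed the rising trend. That of 7 ES cell marker genes ran from 25102 to 27538 bp and from 18538 to 21293 bp, with 1 rising (Klf4) and 1 falling (Pou5f1). For 5 trophectoderm genes the ranges were 9951 to 11173 bp and 8416 to 10154 bp, with Gata3 rising, and for 5 fibroblast genes 5063 to 5895 bp and 3312 to 4335 bp, with Col1a2 rising and Twist2 falling. Both 48 h libraries were at 0 bp for Thy1. The start sites of Col1a1, Col1a2, Pdgfrb and Twist2 were called in no library of 0 h or 48 h. Those of Thy1 and Nanog had a call in each 0 h library and none at 48 h. That of Pou5f1 went the other way, with no call at 0 h and a call in each 48 h library. At Sox2, Esrrb, Zfp42 and Tfcp2l1 every library of these times had a start-site call. At Klf4 only 1 library of each time had such a call. The lists come from whole cultures, so a change in the number of cells with an open region and a change in its openness per cell cannot be told apart.

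To see when regions around these genes opened and closed, each time point was compared with 0 h. Gained regions were those with a peak in both libraries of the time point and in neither 0 h library, and lost regions the opposite. Regions with a peak in all 4 were shared. The gained regions were 12 at 2 h (8.63% of 139, against 8.0% of all 88175 assigned regions), 18 at 4 h (12.9%, against 9.24%) and 19 at 8 h (13.7%, against 10.4%). They were 23 at 16 h (16.5%, against 12.6%), 22 at 24 h (15.8%, against 11.5%) and 23 at 48 h (16.5%, against 14.2%). The lost regions were 6 at 2 h (4.32%, against 5.66%), 12 at 4 h (8.63%, against 6.45%) and 14 at 8 h (10.1%, against 8.42%). They were 13 at 16 h (9.35%, against 8.16%), 20 at 24 h (14.4%, against 11.2%) and 24 at 48 h (17.3%, against 14.6%). The shares of the 10 genes lay above the background in both directions from 4 h on, by a few percentage points, and this difference was not tested. All 6 comparisons share the 0 h libraries, and 2 libraries against 2 cannot give an exact p under 0.333, so no p is attached.

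**Figure D1:**
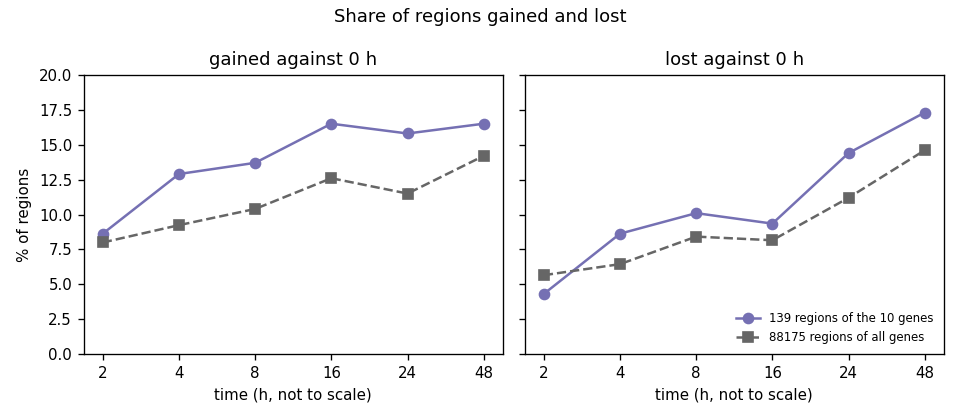
Percent of regions gained (left) and lost (right) against 0 h at each time point, for the 139 regions of the 10 genes (circles) and the 88175 regions of all genes (squares). The members ran from 8.63% to 16.5% gained and from 4.32% to 17.3% lost, and lay a few percentage points above all genes from 4 h on.

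The genes differed among themselves in how these regions were spread. Fgf4 had 0 gained and 5 lost regions at 48 h, Dusp6 0 gained and 3 lost, and Fgfr1 1 gained and 5 lost. Fgfr3 had 6 gained and 0 lost, Fgfr2 2 gained and 0 lost, and Fgfr4 1 gained and 0 lost. Both directions occurred at Etv5 (6 gained, 3 lost), Spry4 (4 gained, 5 lost), Spry2 (2 gained, 1 lost) and Etv4 (1 gained, 2 lost). Of the 23 gained regions 1 lay within 1 kb of a TSS, as did 2 of the 24 lost and 8 of the 26 shared ones. The median distance from the TSS was 16395 bp for gained, 16380 bp for lost and 7262 bp for shared regions. Of the gained regions, 12 lay between genes and 9 in introns, and of the lost regions 16 and 6. Of the 23 regions gained at 48 h, 2 first had a peak in both libraries at 2 h, while for 5 that time was 4 h and for 4 it was 8 h. It was 16 h for 6 regions, 24 h for 0 and 48 h for 6. No count over all genes stands beside these positions, distances and times, so they describe the members alone.

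**Figure D2:**
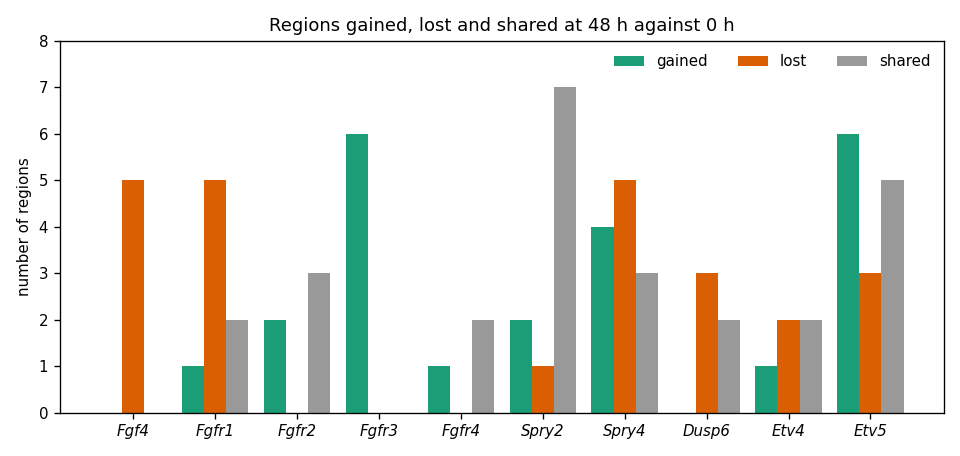
Number of regions of each gene gained, lost and shared at 48 h against 0 h, from 2 libraries per time point. Fgfr3 has 6 gained and 0 lost regions, Fgf4 0 gained and 5 lost, and Etv5 6 gained and 3 lost.

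Sequences are shown for 3 gained and 3 lost regions, from the genes whose covered length had the lowest adjusted p for a trend in that direction, and for 2 regions of feedback genes that were chosen after their values were seen. Each is the 200 bases around the centre of the merged region, from the plus strand of GRCm38 (RefSeq copy), and each lies outside annotated UTRs of protein-coding genes. Capitals mark matches on either strand to the GATA motif (AGATAA or AGATAG or TGATAA or TGATAG), the AP-1 motif (TGACTCA) or the ETS motif (CCGGAA). The gained regions are upstream of Fgfr3 (chr5:33720649-33720848), in an intron of Fgfr2 (chr7:130236914-130237113) and upstream of Etv5 in an intron of Dgkg (chr16:22487342-22487541).
Fgfr3 gained: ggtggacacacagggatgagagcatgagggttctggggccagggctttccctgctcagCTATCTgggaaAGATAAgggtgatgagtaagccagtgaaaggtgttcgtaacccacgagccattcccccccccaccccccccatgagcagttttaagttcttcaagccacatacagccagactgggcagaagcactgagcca
Fgfr2 gained: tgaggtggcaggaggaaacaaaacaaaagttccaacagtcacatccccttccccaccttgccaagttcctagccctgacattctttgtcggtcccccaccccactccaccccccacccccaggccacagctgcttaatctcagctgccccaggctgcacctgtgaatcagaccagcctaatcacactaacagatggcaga
Etv5 gained: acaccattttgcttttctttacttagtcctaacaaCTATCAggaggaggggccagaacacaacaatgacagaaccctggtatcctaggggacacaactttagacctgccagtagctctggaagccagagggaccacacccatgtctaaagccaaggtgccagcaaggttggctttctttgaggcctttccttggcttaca
The lost regions are upstream of Fgf4 (chr7:144857330-144857529), downstream of Dusp6 (chr10:99298734-99298933) and upstream of Fgfr1 (chr8:25513340-25513539).
Fgf4 lost: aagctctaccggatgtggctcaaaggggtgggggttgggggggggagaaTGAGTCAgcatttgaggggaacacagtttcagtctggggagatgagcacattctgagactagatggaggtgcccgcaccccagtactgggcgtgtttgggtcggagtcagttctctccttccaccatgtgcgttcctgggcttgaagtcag
Dusp6 lost: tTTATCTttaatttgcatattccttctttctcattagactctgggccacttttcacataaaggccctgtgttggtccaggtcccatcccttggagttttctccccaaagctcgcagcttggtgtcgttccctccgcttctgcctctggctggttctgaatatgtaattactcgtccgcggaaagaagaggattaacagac
Fgfr1 lost: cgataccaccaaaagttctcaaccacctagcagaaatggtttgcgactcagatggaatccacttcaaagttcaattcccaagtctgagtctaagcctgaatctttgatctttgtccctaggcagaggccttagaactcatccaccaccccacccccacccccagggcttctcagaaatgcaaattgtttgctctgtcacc
The 2 regions chosen for their values between 2 and 16 h are downstream of Dusp6 (chr10:99286928-99287127) and upstream of Spry2 (chr14:105900822-105901021), both between genes.
Dusp6 between 2 and 16 h: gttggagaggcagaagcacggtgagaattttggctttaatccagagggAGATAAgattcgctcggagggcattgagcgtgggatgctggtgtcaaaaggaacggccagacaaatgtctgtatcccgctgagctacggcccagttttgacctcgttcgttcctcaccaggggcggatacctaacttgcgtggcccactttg
Spry2 between 2 and 16 h: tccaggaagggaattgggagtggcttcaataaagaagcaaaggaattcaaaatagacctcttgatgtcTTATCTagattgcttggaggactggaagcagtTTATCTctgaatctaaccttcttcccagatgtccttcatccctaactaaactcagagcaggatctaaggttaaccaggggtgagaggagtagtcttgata
The Fgfr3 and Spry2 windows each hold 2 GATA matches, the Etv5 window and both Dusp6 windows 1 each, and the Fgf4 window 1 AP-1 match. No window of these holds the letters of the ETS motif, and those of Fgfr2 and Fgfr1 hold none of the 3 motifs.

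The same motifs were counted in the 200 bases around the centre of every region. A GATA match was found in 13 of the 23 member regions gained at 48 h (56.5%), 3 of the 24 lost (12.5%) and 4 of the 26 shared (15.4%). Among assigned regions of all genes, 54.8% of the gained ones had such a match, 21.1% of the lost ones and 16.6% of those shared, and 32.5% of the 88175 in all. The gained regions of the 10 genes thus held GATA letters in about the same share as those of all genes. AP-1 letters were found in 13 of the 139 member regions (9.35%, against 8.58% of all) and ETS letters in 15 (10.8%, against 6.73%). ETS letters were in 0 of the 24 lost regions, against 4.66% of all lost regions, and in 4 of the 26 shared (15.4%), against 13.3% of all shared regions.

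For each gene, the base pairs covered by peaks in all its regions were summed per library and tested over all 17741 genes with a region. The exact permutation test of a difference between time points, with Benjamini-Hochberg adjustment, passed for 4 of the 10 genes (Fgf4, Fgfr2, Fgfr3 and Etv5), against 22.7% of all genes. The permutation test of a trend with time called Fgfr2 and Fgfr3 rising, against 8.42% of all genes, and Fgf4 falling, against 11.8%. The median rho with time was -0.07 over the 10 genes and -0.09 over all genes. By region, 87 member regions could be tested for a trend of calls, and 15 rose and 11 fell, against 12.1% and 12.3% of all 79559 regions tested.

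**Figure D3:**
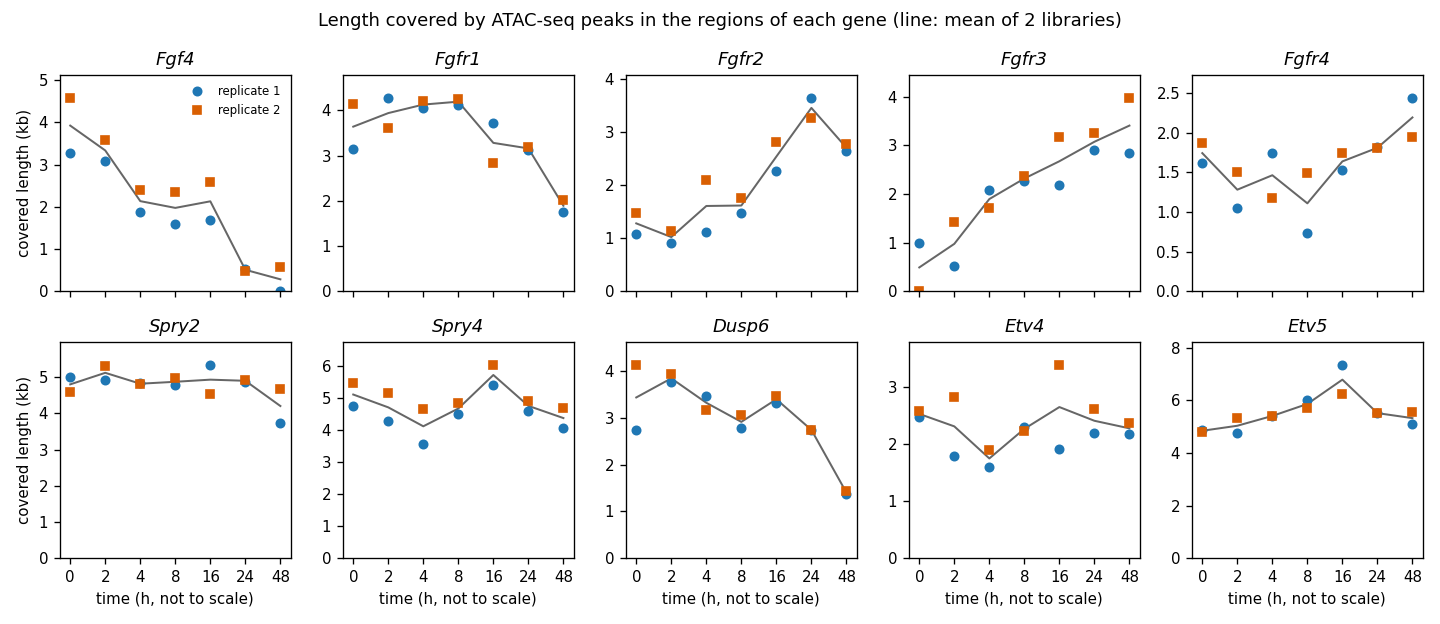
Length covered by peaks in the regions of each gene (kb) at each time point, 1 point per library, with a line through the mean of the 2 libraries. Fgf4 is at 3269 and 4574 bp at 0 h and at 0 and 573 bp at 48 h, Fgfr3 is at 987 and 0 bp at 0 h and at 2842 and 3976 bp at 48 h, and Dusp6 is lowest at 48 h.

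Accessibility fell around Fgf4, which encodes the ligand that Epi cells send to PrE precursors. Its covered length was 3269 and 4574 bp at 0 h, 3080 and 3587 bp at 2 h, 1869 and 2402 bp at 4 h and 1605 and 2346 bp at 8 h. It was 1685 and 2577 bp at 16 h, 542 and 481 bp at 24 h, and 0 and 573 bp at 48 h. All 4 libraries of 24 h and 48 h lay below all 10 earlier ones. The means of 0 h and 48 h were 3922 ± 923 and 286.5 ± 405 bp (SD, n = 2). The difference between time points (F = 12.7, exact permutation p = 0.00147, adjusted p = 0.0206, one-sided) and the falling trend (rho = -0.89, permutation p = 9e-05, adjusted p = 0.0033, two-sided) both passed. Within serum, without the 0 h libraries, the trend also passed (rho = -0.85, permutation test, adjusted p = 0.0131).

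The 5 lost regions of Fgf4 had their last call in both libraries at different times. The region that holds the TSS (chr7:144860941-144861484) was at score percentiles of 50.5 and 48.0 at 0 h, 54.2 and 54.1 at 16 h and 30.2 and 19.3 at 24 h, and was called in neither library at 48 h. The score percentile is the rank of a peak's deposited score among all peaks of its own list, from 0 for the lowest to 100 for the highest. This start site was thus called in 12 of 14 libraries, and calls in 12 libraries cannot give an exact permutation p under 0.022 (adjusted p = 0.0541), the value reached here, so its trend could not pass. A region 3957 bp upstream, printed above with its AP-1 letters, was at 57.0 and 55.7 at 0 h, 80.0 and 81.4 at 2 h and 52.8 and 54.2 at 4 h. It was at 42.4 and 27.2 at 8 h and 7.89 and 17.2 at 16 h, and was not called later. Calls fell with time there, and also 3360 bp upstream, where only 0 h and 2 h libraries had a peak. They fell as well at the UTR of the gene 3169 bp downstream of the TSS (exact permutation adjusted p = 0.013 for each of the 3). No region of Fgf4 was gained at 48 h.

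Among the receptor genes, accessibility rose around Fgfr2 and Fgfr3. Fgfr2, a main receptor of PrE cells, had 1084 and 1474 bp covered at 0 h, 906 and 1137 bp at 2 h, 1111 and 2101 bp at 4 h and 1482 and 1747 bp at 8 h. It had 2256 and 2813 bp at 16 h, 3635 and 3263 bp at 24 h and 2636 and 2766 bp at 48 h. All 6 libraries from 16 h on lay above all 8 earlier ones. Time points differed (F = 12.6, exact permutation p = 0.0026, adjusted p = 0.0255) and the trend rose (rho = 0.85, permutation p = 0.00033, adjusted p = 0.00638), also within serum (rho = 0.83, permutation test, adjusted p = 0.0174).

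The Fgfr2 start site itself (chr7:130265940-130266765) was called in all 14 libraries. Its score percentile was 16.0 and 6.92 at 0 h, 57.3 and 23.1 at 2 h, 32.4 and 2.11 at 4 h and 32.0 and 63.5 at 8 h. It was 87.6 and 84.1 at 16 h, 80.6 and 84.6 at 24 h and 67.6 and 78.7 at 48 h. All 6 libraries from 16 h on lay above all 8 earlier ones, among which replicates differed by over 30 percentiles at 2, 4 and 8 h. The percentile rose over all libraries (rho = 0.77, permutation p = 0.00192, adjusted p = 0.0134) and missed the threshold within serum (rho = 0.69, permutation adjusted p = 0.0505). An intron region 29178 bp from the TSS was first called at 8 h and stood at 72.2 and 80.3 at 24 h and 65.6 and 58.8 at 48 h. Another, 12523 bp from the TSS, stood at 64.5 and 74.1 at 24 h and 38.5 and 49.2 at 48 h. Calls rose with time at both (exact permutation adjusted p = 0.013 and 0.021). A region 43178 bp upstream was called in both libraries of 2 h and 4 h and in none from 16 h on.

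Fgfr3, a receptor of the same family, had 987 and 0 bp covered at 0 h, 520 and 1436 bp at 2 h, 2089 and 1709 bp at 4 h and 2272 and 2371 bp at 8 h. It had 2183 and 3169 bp at 16 h, 2902 and 3251 bp at 24 h and 2842 and 3976 bp at 48 h. Each library from 4 h on lay above each library of 0 h and 2 h. Time points differed (F = 7.43, exact permutation p = 0.00837, adjusted p = 0.0424) and the trend rose (rho = 0.92, permutation p = 4e-05, adjusted p = 0.00225). Within serum the trend passed (rho = 0.89, permutation test, adjusted p = 0.00832) and the difference between time points missed the threshold (exact permutation adjusted p = 0.0837).

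The earliest of the Fgfr3 regions lay just upstream of the gene. It was the region 976 bp before the TSS (chr5:33720317-33721179), printed above with 2 GATA matches. It was not called at 0 h and was at 15.1 and 36.8 at 2 h, 72.3 and 80.7 at 4 h and 88.7 and 89.4 at 8 h. It was at 89.0 and 89.8 at 16 h, 80.2 and 76.8 at 24 h and 80.0 and 78.7 at 48 h. A region 21291 bp upstream followed at 4 h with 47.3 and 52.8 and was at 92.5 and 90.8 at 8 h and at 72.7 and 75.3 at 48 h. A region 16180 bp upstream appeared at 16 h with 30.7 and 23.7 and reached 64.6 and 65.7 at 48 h. Calls rose with time at these 2 upstream regions (exact permutation adjusted p = 0.013 each). The nearest one was called in 12 of 14 libraries, like the Fgf4 start site, so its trend could not pass whatever the order of its calls. By contrast, the region over the start site itself (chr5:33721349-33722444) was called in 11 libraries without an order in time, in 1 of 2 libraries at 0 h and in 1 of 2 at 48 h (exact permutation adjusted p = 0.77).

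Fgfr1, the receptor that ES cells and Epi cells use, had 3143 and 4136 bp covered at 0 h, 4272 and 3606 bp at 2 h, 4051 and 4203 bp at 4 h and 4126 and 4257 bp at 8 h. It had 3727 and 2835 bp at 16 h, 3131 and 3187 bp at 24 h and 1762 and 2023 bp at 48 h. The 48 h libraries lay below all 12 others. Over all libraries neither the difference (F = 7.63, exact permutation adjusted p = 0.0628) nor the trend (rho = -0.63, permutation adjusted p = 0.0762) passed, and within serum the trend did (rho = -0.79, permutation test, adjusted p = 0.0266).

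The Fgfr1 start site (chr8:25518567-25519561) was called in every library, between the 41.0th and the 76.6th percentile, and its difference between time points missed the threshold (exact permutation adjusted p = 0.0684). Upstream, 1 region closed as another opened. The region 5350 bp before the TSS (chr8:25513126-25513753) was at 73.9 and 67.9 at 0 h, 54.9 and 48.4 at 2 h and 18.5 in 1 library at 4 h, and was not called afterwards. The region 3769 bp before the TSS (chr8:25514487-25515553) was first called in 1 library at 4 h and was at 59.1 and 61.8 at 8 h and 78.0 and 70.3 at 48 h (exact permutation adjusted p = 0.013 for each). The lost region overlaps the start of the Fgfr1 gene record (position 25513654), which lies before the first supported TSS, and the gained region lies inside the record. An intron region 11356 bp from another TSS of the gene was called in all 14 libraries. It was at 88.1 and 86.2 at 0 h, 20.4 and 54.2 at 2 h, 61.3 and 70.0 at 4 h and 77.2 and 83.5 at 8 h. It was at 86.5 and 90.6 at 16 h, 95.8 and 95.4 at 24 h and 84.7 and 78.4 at 48 h. It was thus lowest at 2 h, and time points differed (F = 8.21, exact permutation p = 0.000178, adjusted p = 0.00411).

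Fgfr4 had 1612 and 1873 bp covered at 0 h, 731 and 1489 bp at 8 h and 2437 and 1947 bp at 48 h. Neither test passed over all libraries (F = 2.49, exact permutation adjusted p = 0.204, and rho = 0.48, permutation adjusted p = 0.211). Within serum its trend rose (rho = 0.79, permutation test, adjusted p = 0.0266). Its start site (chr13:55152399-55153456) was at 36.0 and 46.7 at 0 h, was called in 1 of 2 libraries at each of 2, 4 and 8 h, and was at 70.5 and 82.2 at 48 h. A region in an intron 14529 bp from the TSS was called in all 14 libraries, at 92.9 and 94.9 at 0 h and lower in each library after, and its difference between time points did not pass (exact permutation adjusted p = 0.0892).

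At the feedback inhibitor genes, the region over the start site of Dusp6 and of Spry4 was called in all 14 libraries, and other regions came and went at various distances. Dusp6, the gene of the ERK phosphatase, had 2741 and 4135 bp covered at 0 h, 3763 and 3929 bp at 2 h, 3474 and 3174 bp at 4 h and 2775 and 3057 bp at 8 h. It had 3329 and 3469 bp at 16 h, 2747 and 2743 bp at 24 h and 1375 and 1434 bp at 48 h. Both 48 h libraries lay below all 12 others, with a mean of 1404 ± 41.7 bp, whereas the 0 h libraries were far apart, at 3438 ± 986 bp (SD, n = 2). Over all libraries the difference (F = 8.17, exact permutation adjusted p = 0.0689) and the trend (rho = -0.66, permutation adjusted p = 0.0604) missed the threshold. Within serum both passed (F = 77.9, exact permutation adjusted p = 0.0264, and rho = -0.88, permutation adjusted p = 0.00899).

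The Dusp6 start site (chr10:99262922-99263392) was at the 94.9th to the 99.4th percentile in all 14 libraries and did not pass the test (F = 0.81, exact permutation adjusted p = 0.597). A region 23796 bp downstream (chr10:99286674-99287380), printed above, was called at 0 h in 1 of 2 libraries at the 9.63rd percentile. It was at 87.1 and 81.8 at 2 h, 92.6 and 89.7 at 4 h, 89.4 and 90.5 at 8 h, 85.3 and 91.2 at 16 h and 31.2 and 56.1 at 24 h, and was called in neither library at 48 h. This rise and decline is no trend of calls (exact permutation adjusted p = 0.571), and percentiles were tested only for regions called everywhere. A region 30087 bp downstream was called in all libraries up to 24 h and in neither at 48 h, and a region 35602 bp downstream was at 61.4 and 58.0 at 0 h and not called from 8 h on, with falling calls (exact permutation adjusted p = 0.013).

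Spry2 had a steady cover, with 5016 and 4588 bp at 0 h, 3743 and 4665 bp at 48 h and 4523 to 5341 bp in the libraries between. Neither test passed (F = 1.21, exact permutation adjusted p = 0.496, and rho = -0.31, permutation adjusted p = 0.459). Under this steady sum, single regions moved in different directions. The region 4102 bp upstream (chr14:105900605-105901238), printed above with 2 GATA matches, was called in all 14 libraries at 58.4 and 62.8 at 0 h, 94.9 and 93.2 at 2 h, 94.5 and 97.0 at 4 h and 97.0 and 94.9 at 8 h. It was at 96.7 and 95.5 at 16 h, 81.9 and 86.0 at 24 h and 58.1 and 62.9 at 48 h. The libraries of 2 to 24 h all lay above those of 0 h and 48 h, which overlapped, and time points differed (F = 101.0, exact permutation p = 0.00159, adjusted p = 0.0118).

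A pair of further Spry2 regions stood side by side with different courses. The region 26285 bp upstream was at 19.5 and 31.7 at 0 h, between 84.6 and 96.5 in the 8 libraries of 2 to 16 h, at 19.9 and 49.6 at 24 h and at 57.5 in the only 48 h library that called it. The region 24076 bp upstream was highest at 0 h, at 98.0 and 97.8. It was at 67.2 and 75.4 at 4 h and 91.7 and 90.2 at 16 h, and was at 77.5 and 74.3 at 48 h (F = 15.4, exact permutation p = 0.00074, adjusted p = 0.00794). Downstream, a region 34495 bp from the TSS with 2 GATA matches and 1 AP-1 match was not called at 0 h or 2 h. It was at 28.5 and 42.3 at 4 h, 45.7 and 58.7 at 8 h, 67.4 and 70.5 at 16 h and 86.8 and 86.7 at 48 h (exact permutation adjusted p = 0.013 for rising calls). The region nearest the TSS, 601 bp upstream, was called in 13 libraries, at 68.4 and 48.5 at 0 h and 66.3 and 80.0 at 48 h.

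Spry4 had 4750 and 5488 bp covered at 0 h, 3583 and 4669 bp at 4 h, 5412 and 6047 bp at 16 h and 4061 and 4705 bp at 48 h. Neither test passed (F = 2.12, exact permutation adjusted p = 0.261, and rho = -0.13, permutation adjusted p = 0.783). Its start site (chr18:38601250-38602946) was at 80.6 and 84.1 at 0 h, 85.0 and 84.9 at 2 h, 86.0 and 83.0 at 24 h and 62.7 and 64.9 at 48 h, so that the 48 h libraries were the lowest (F = 7.55, exact permutation adjusted p = 0.0416). A region 27426 bp downstream was not called at 0 h and was at 80.2 and 84.0 at 2 h, between 68.1 and 85.0 from 4 h to 24 h, and at 32.2 in 1 of 2 libraries at 48 h. A region 30626 bp upstream, called in all libraries, was at 55.5 and 42.1 at 0 h, 77.3 and 82.6 at 2 h and 41.4 and 52.1 at 48 h (F = 11.6, exact permutation p = 0.00322, adjusted p = 0.0175). A later region, 10440 bp upstream, was at 17.6 and 3.45 at 8 h, 82.3 and 77.4 at 16 h and 70.0 and 71.4 at 48 h, with rising calls (exact permutation adjusted p = 0.013). A region 27571 bp upstream had calls in both 0 h libraries, in 1 library at 2 h and in none later (exact permutation adjusted p = 0.0451).

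**Figure D4:**
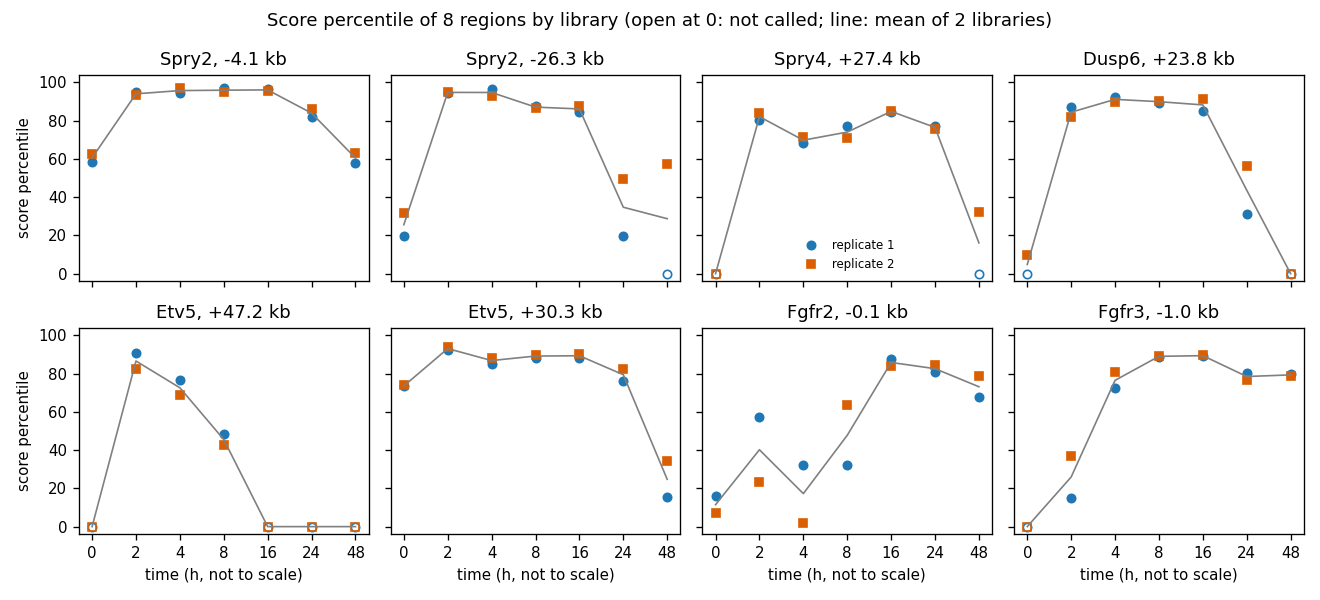
Score percentile within the list (0 to 100) by time for 8 regions, named by gene and distance from the TSS, with 1 point per library, open points at 0 where a library did not call the region, and a line through the mean of the 2 libraries. The regions of Spry2, Spry4 and Dusp6 stand high between 2 h and 16 h and lower at 0 h and 48 h, the first Etv5 region is called only from 2 h to 8 h, and those of Fgfr2 and Fgfr3 stay high at 48 h. These regions were chosen after their values were seen, except those of Fgfr2 and Fgfr3. The Fgfr2 region holds the TSS. The Fgfr3 region, 976 bp upstream, is the gained region of that gene with the highest mean percentile at 48 h. The region over the Fgfr3 start itself is not shown.

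Of the ETS factor genes, Etv5 had 4895 and 4799 bp covered at 0 h, 4747 and 5328 bp at 2 h, 5412 and 5410 bp at 4 h and 6026 and 5707 bp at 8 h. It had 7353 and 6227 bp at 16 h, 5531 and 5505 bp at 24 h and 5111 and 5544 bp at 48 h. Both 16 h libraries lay above all 12 others. Time points differed (F = 6.04, exact permutation p = 0.00297, adjusted p = 0.027), and this was lost within serum (exact permutation adjusted p = 0.063). The trend did not pass (rho = 0.56, permutation adjusted p = 0.124).

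The start site of Etv5 (chr16:22439466-22440190) was at the 88.8th percentile or above in every library and did not pass the test of a difference (exact permutation adjusted p = 0.289). An intron region 7279 bp from the TSS was at 99.5 and 99.4 at 0 h, 99.1 and 98.4 at 16 h, 95.6 in both libraries at 24 h and 87.7 and 90.7 at 48 h. Its percentile fell with time (rho = -0.88, permutation p = 0.00012, adjusted p = 0.00279). So did that of an intron region 23524 bp from the TSS, which was at 94.5 and 95.9 at 0 h and 38.6 and 53.9 at 48 h (rho = -0.75, permutation adjusted p = 0.0158). Within serum the fall passed at the first (rho = -0.81, permutation adjusted p = 0.0149) and not at the second (rho = -0.61, permutation adjusted p = 0.0998). An intron region 30255 bp into the gene was at 73.3 and 73.8 at 0 h and 92.3 and 93.9 at 2 h. It was at 88.4 and 90.3 at 16 h, 76.4 and 82.5 at 24 h and 15.4 and 34.1 at 48 h (F = 39.3, exact permutation p = 4.44e-05, adjusted p = 0.00253).

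Other Etv5 regions were called only at some time points. The region 47158 bp into the gene was called only at 2 h (90.7 and 82.5), 4 h (76.5 and 68.7) and 8 h (48.2 and 42.9). Its calls thus fell within serum (exact permutation adjusted p = 0.0254), while over all libraries their trend did not pass (exact permutation adjusted p = 0.265). The region over a coding exon 24667 bp from the TSS (chr16:22411589-22412106) was at 61.1 and 71.2 at 0 h, between 56.7 and 83.7 from 2 h to 24 h, and was called in neither library at 48 h. Upstream, in an intron of the neighbouring gene Dgkg, the region 47722 bp from the TSS was first called at 16 h and was at 59.8 and 52.8 at 48 h (exact permutation adjusted p = 0.013). Its nearest TSS is that of Etv5, which does not show which gene it serves.

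Etv4 had 2476 and 2575 bp covered at 0 h, 1605 and 1888 bp at 4 h, 1907 and 3384 bp at 16 h and 2175 and 2371 bp at 48 h. Neither test passed (F = 0.645, exact permutation adjusted p = 0.772, and rho = -0.01, permutation adjusted p = 0.997). Its start site (chr11:101784485-101785515) was at 59.1 and 61.9 at 0 h, 79.6 and 69.9 at 2 h and 83.8 and 86.4 at 48 h, and the percentile rose over all libraries (rho = 0.73, permutation p = 0.00485, adjusted p = 0.0237). Within serum this trend did not pass (rho = 0.57, permutation adjusted p = 0.132). An intron region 7082 bp from the TSS (chr11:101777847-101778610) was not called before 16 h, when it was at 42.6 and 70.5, and was at 76.0 and 71.9 at 24 h and 89.7 and 89.2 at 48 h. A region 2093 bp upstream (chr11:101787101-101787828) was at 58.3 and 69.0 at 0 h, 75.4 and 56.7 at 4 h and 18.3 and 5.26 at 16 h and was not called later. Both trends of calls passed (exact permutation adjusted p = 0.013 each).

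**Figure D5:**
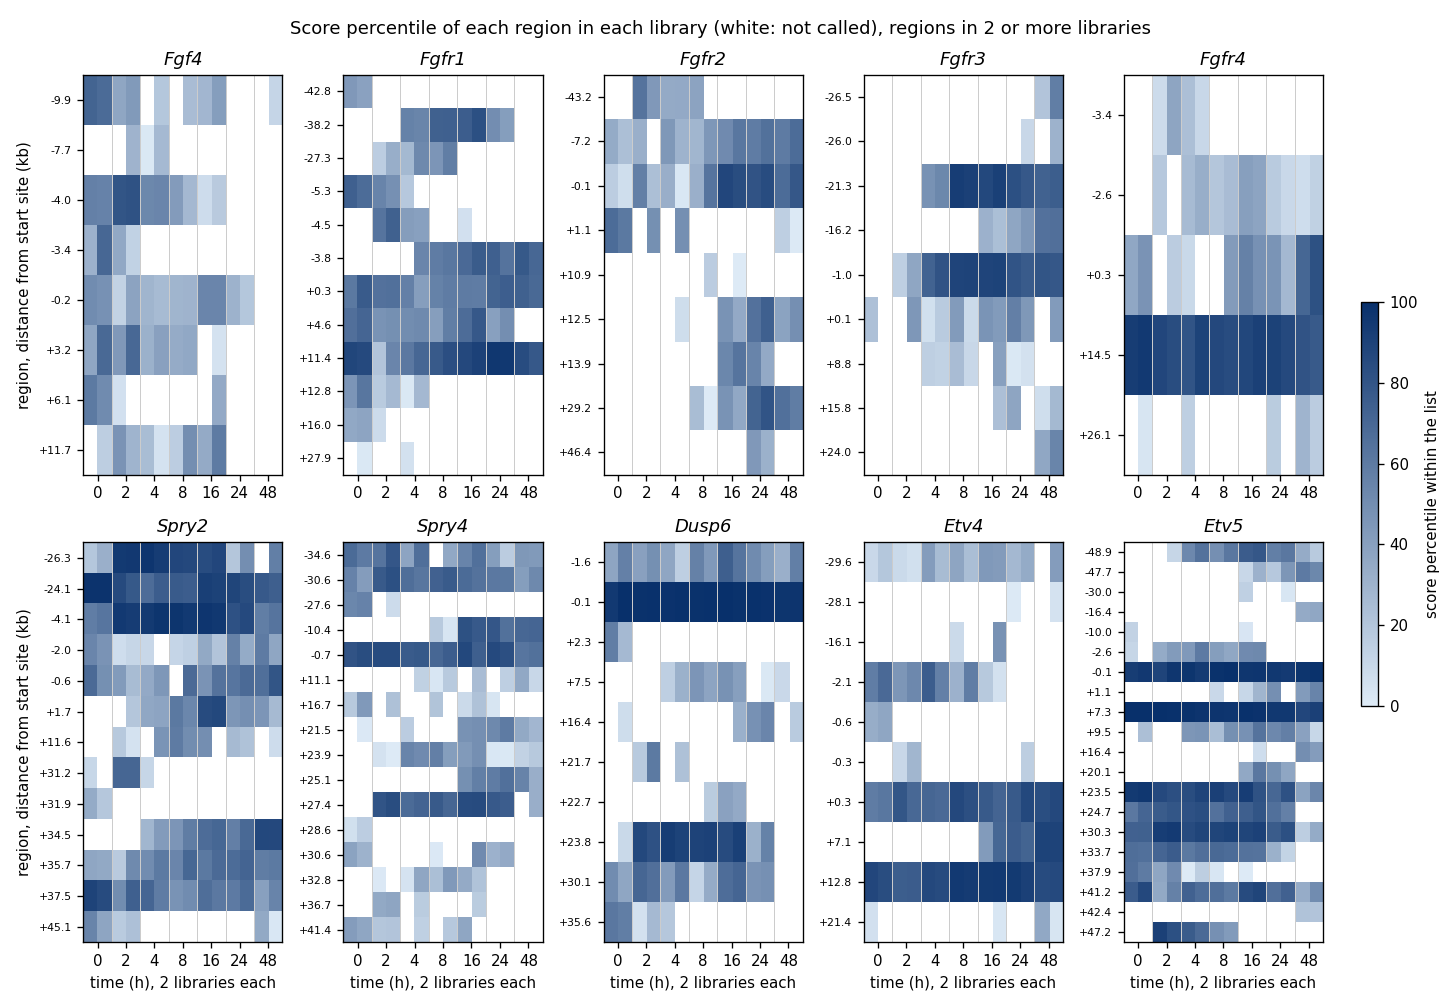
Each row is a region called in 2 or more libraries, labelled by its distance from the TSS (kb, negative upstream), each column a library, and the shade is the score percentile within the list, with white where the region was not called. Only 1 row of Fgf4 has a call at 48 h, rows of Fgfr3 other than the start site begin at 2 h or later, and several rows of Spry2, Spry4, Dusp6 and Etv5 are dark from 2 h to 16 h or 24 h only.

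Of the 139 regions, 19 were called in all 14 libraries (13.7%, against 18.9% of all assigned regions), and these were compared by score percentile. The difference between time points passed at 12 of the 19, against 35.7% of all 18809 such regions, with 3 rising (19.5% of all) and 2 falling (9.83% of all). The 3 that rose were the start sites of Fgfr2 and Etv4 and a region 35729 bp downstream of Spry2 (rho = 0.68, permutation adjusted p = 0.0372), and the 2 that fell were the Etv5 introns above. Without the 0 h libraries none of these 3 rising trends passed (permutation adjusted p = 0.172 for the Spry2 region). The 1 region that then rose was the Fgfr1 intron region 11356 bp from an inner TSS of that gene (rho = 0.78, permutation adjusted p = 0.0217). Of the 3 that then fell, 1 was the Etv5 intron region 7279 bp from the TSS. The others lay 30255 bp into Etv5 (rho = -0.79, permutation adjusted p = 0.0183) and 30626 bp upstream of Spry4 (rho = -0.85, permutation adjusted p = 0.00886). The median rho with time was -0.23 over the 19 regions and 0.19 over all 18809. Etv5 held 5 of the 19 regions, Spry2 4, and Fgf4 and Fgfr3 none.

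The step from 24 h to 48 h took away 12 of the 139 regions (8.63%, against 4.81% of all assigned regions) and added 8 (5.76%, against 4.47%). Etv5 lost 3, Fgfr1, Fgfr2 and Dusp6 2 each, and Fgf4, Fgfr3 and Spry4 1 each. Of these 12, 5 had been called in all 12 earlier libraries: the Fgf4 start site, an intron region 4643 bp from an Fgfr1 TSS, the Dusp6 region 30087 bp downstream, and Etv5 regions 24667 and 33741 bp into the gene. Over all times, 16 regions (11.5%, against 12.6% of all assigned regions) had no call at 0 h or 48 h but a call in both libraries at some other time. There were 3 each at Fgfr1 and Fgfr2 and none at Spry2. Some of these 16 are also among the 12 lost after 24 h. Of the 12 regions gained at 2 h, 2 were still called in both libraries at 48 h, those of Fgfr3 (976 bp upstream) and Spry4 (23856 bp downstream). No share over all genes stands beside this count or that of regions called in all earlier libraries, so neither shows a trait of these genes.

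The rest of the pathway was read from lists of genes with the same tests. Of 15 other FGF ligand genes, 3 differed between time points, 1 rose and 3 fell, and the median rho was -0.43. Fgf17 passed both tests, with 377 and 481 bp at 0 h and 709 and 713 bp at 48 h (rho = 0.91, permutation adjusted p = 0.00313). Of 20 genes of adaptors and kinases of the ERK cascade, 2 differed, 2 rose and 0 fell (median rho -0.16), and Mapk3, the gene of the kinase ERK1, passed both tests, with 533 bp in each 0 h library and between 1933 and 2136 bp at 48 h (rho = 0.82, permutation adjusted p = 0.00922). Of 19 other feedback inhibitor and ETS factor genes with regions, 3 differed, 2 rose and 2 fell (median rho -0.24), and Ets1, an ETS factor, passed both tests, with 1321 and 1328 bp at 0 h and between 4108 and 5116 bp at 48 h (rho = 0.93, permutation adjusted p = 0.002). In each list the share of genes that differed was below the 22.7% of all genes.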

How the data were processed

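ATAC-seq peak lists of 14 libraries (7 time points, 2 libraries each) were used. The authors made 1 list per library with the ENCODE ATAC-seq pipeline, with an irreproducible discovery rate filter on pseudoreplicates and a blacklist filter. These deposited lists are per library, while the study's own signal tracks and peak sets combined the replicates. The submitters' processing notes name mm10, GRCm38 and deepTools. The deposited value of each peak is an unnamed score on an unstated scale, so the score was used only as a rank within its list. The lists hold no reads, so depth is unknown and no interval that needs it is given.

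No peak ended past its GRCm38 chromosome (0 of 839049), and 25.5% of peak midpoints lay within 1 kb of a TSS, against 3.69% after a shift. TSSs were the 5′ ends of protein-coding transcripts of GENCODE M21 (basic set) with support level 1 or 2, or all where a gene had none. This was chosen after region positions were seen, since the gene records start 2.86 Mb upstream of the supported Fgfr2 transcripts and 14.0 kb upstream of those of Fgf4. The Fgfr1 record also starts before its first supported TSS. Distances are from the nearest TSS used, which can differ between regions of a gene with several.

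Covered length and percentiles were tested over every pairing of the 14 libraries (135135, one-sided F) and by 100000 shuffles (two-sided rho, smallest p 1e-05). Calls were tested in regions called in 2 to 12 libraries with an exact permutation test (two-sided) on summed time ranks. P-values were adjusted over all features by the Benjamini-Hochberg method at 0.05. Scripts (Python 3.11.15, NumPy 2.4.6, pandas 2.3.3, SciPy 1.17.1) were tested on simulated data. Named regions were the one nearest each TSS (within 1 kb) and the gained and lost region with the highest mean percentile at 48 h and 0 h; regions with calls or percentiles passing a test, or with courses between these, were added after their values were seen. Members and lists were chosen with earlier results of these data known. Alternatives were other peak limits, call rules, distances and measures, and fits without 0 h or with a replicate block. Of 20 listed feedback and ETS genes, 19 matched the annotation.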

Additional observations from a re-analysis of the deposited data

Results flagged for a closer look

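Fgfr4 moved both ways against 0 h. Both 8 h libraries covered less than both 0 h libraries, with a mean difference of -632.5 bp, and both 48 h libraries covered more, with a mean difference of 449.5 bp. The values were 1612 and 1873 bp at 0 h, 731 and 1489 bp at 8 h and 2437 and 1947 bp at 48 h. Both differences share the 0 h libraries, and the contrast between them was not tested.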

How the results depend on the processing

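Over 362 alternative values of 50 results, those that left out no replicate kept their direction and side of the threshold, or stayed within 1.5 times for counts, in 202 of 278 cases. Of these, Fgf4, Fgfr2 and Fgfr3 kept the trends reported, except that Fgfr2 turned with the TSS of the gene record (rho -0.19, adjusted p = 0.692), an alternative added after the data were seen that gives Fgfr2 none of the regions described. Against 12 regions gained and 6 lost at 2 h, the 50000 highest-scored peaks gave 10 lost, calls covering 50% of the region 11 lost, and calls in at least 1 library 21 gained and 21 lost, with 38 lost at 48 h. A limit of 20 kb, which keeps fewer regions, gave 5 gained and 2 lost at 2 h, 13 gained and 13 lost at 48 h, 9 rising and 7 falling regions, 2 genes that differed and 2 that fell, and turned the rho of Spry2 (0.37), Spry4 (0.53) and Dusp6 (0.062). The 50000 highest-scored peaks gave 18 falling regions and 2 falling genes and turned Spry4 (0.27) and Etv4 (0.12). Without the 0 h libraries, 6 regions rose, 3 genes fell and 1 region in all libraries rose, which was none of the 3 reported, and Spry4 (0.0848) and Etv4 (0.30) turned. Numbers of called regions in place of base pairs gave 2 genes that fell and 0 that differed by the exact permutation test (5 at an unadjusted p under 0.05), where 0 of all 17741 genes passed. Division by the list's total cover turned Spry2 (0.41), Spry4 (0.58) and Etv4 (0.50), none past the threshold, and Etv5 then rose (permutation adjusted p = 0.0101), as it did with the 20 kb limit (0.0373) and the gene record (0.0274). The falling trend of Fgfr1 passed with the 50000 highest-scored peaks (permutation adjusted p = 0.0343), the 20 kb limit (0.041), numbers of called regions (0.0153) and without 0 h (0.0266). It did not pass with the replicate block (permutation adjusted p = 0.0928), division by the list's total cover (0.274) or the gene record (0.126). Peak width in place of the score gave 6 regions that differed and 5 that rose. The cause of these moves was not tested. Without a replicate, 18 to 20 regions were gained and 15 to 20 lost at 2 h, and Etv4 had rho -0.0357 to 0.0357. With 7 libraries no gene of 17741 and no region of 18809 passed the trend test, whose smallest p was 0.000397, and calls cannot reach a p under 0.0571, so these counts were not made. The correlation of replicate differences between time points (21 pairs) ran from -0.0205 to 0.092 for covered length. For calls it ran from -0.0152 to 0.0124, and for percentiles from -0.14 to 0.134. Replicate 2 nevertheless had more peaks and a larger cover than replicate 1 at every time point. At 48 h these were 58450 against 55588 peaks and 25.6 against 23.0 Mb. A correlation over features does not measure such a shared shift. By the exact permutation test with the replicate block, Fgf4 (adjusted p = 0.0397), Fgfr2 (0.0445) and Spry4 (0.0474) differed between time points, Fgfr3 (0.0702) and Etv5 (0.0541) did not, and no count moved by over 1.5 times.

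Peak lists limit what can be said: absence from a list means only that no peak passed the filter in that library, and a percentile depends on all other peaks of the list. With 2 libraries per time point, an exact permutation of 1 time point against 0 h cannot pass, and no such contrast was fitted. The nearest TSS does not show which gene a region serves.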
